A study of Homo sapiens with 14 samples.

Results

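HOX genes encode homeodomain transcription factors that give cells their position along the body axis, and in mammals they lie in 4 clusters, HOXA, HOXB, HOXC and HOXD. Within a cluster, genes with low numbers are used early and towards the head, and genes with high numbers late and towards the tail. Outside the tissues that use them, the clusters are classic targets of Polycomb repression. Several members, such as HOXB7, HOXB9 and HOXB13, have been studied for altered expression in breast cancer. GATA3, the factor mapped here, is a zinc-finger protein of luminal breast epithelium that binds GATA motifs. The regions described are those that overlap the hg38 span of 1 of 38 HOX genes plus 50 kb on either side. There were 20 of them among 78999 regions in all, and each was counted once.

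The regions come from GATA3 chromatin immunoprecipitation and sequencing (ChIP-seq) in MDA-MB-231 cells, a line derived from a triple-negative breast cancer. The 6 groups, with 2 libraries each, were A442M-FLAG, G444E-FLAG, WT-FLAG, A442M, G444E and WT: GATA3 with the A442M or G444E point mutation or without mutation, each with FLAG at the C-terminal end and without a tag. The design text says that the tag stabilises GATA3 whatever the mutation. All cells were untreated and harvested on day 3, and 1 antibody against GATA3 served tagged and untagged cells alike. The labels do not say how the GATA3 copies were introduced, nor whether replicates were separate cultures. A p-value therefore reflects only how these particular libraries vary, and that variation may be technical. Samples of cells with an empty vector were not analysed here, and there is no list of background peaks. Each list gives the peaks of 1 library with a score per peak on a scale the files do not name. It is used here as the percentile within its own list, from the weakest peak near 0 to the strongest at 100. A region counts as called in a library whose list has a peak overlapping it.

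As a whole the lists held between 25248 and 51694 peaks, and the reads behind them are unknown. Untagged WT and A442M libraries had 57 to 110 peaks on contigs outside the assembled chromosomes, and the other 8 libraries had 16 to 25. Comparisons that cross this divide (G444E against WT, A442M against G444E, and FLAG against untagged for WT and A442M) cannot be told apart from whatever sets those libraries apart.

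The HOXC cluster held no region in any library, and the other clusters held 4 to 8 each. HOXA had 8 regions in a 199.7 kb window, HOXB 8 in 300.2 kb, HOXD 4 in 203.4 kb and HOXC 0 in 217.2 kb. Together this was 21.7 regions per Mb, against 33.1 per Mb over the windows of all 20033 protein-coding genes, 50 kb included. By cluster it was 40.1 per Mb for HOXA, above the value over all genes, 26.6 for HOXB and 19.7 for HOXD. With the regions that 10 or more libraries called, the densities were 5.43 per Mb at the HOX clusters and 7.92 per Mb over all genes. HOXA and HOXB each had 10 such regions per Mb, above that value, and HOXC and HOXD had 0. Regions called in all 12 libraries numbered 2 of 20, or 10%, where 13.8% of all regions were called in all 12. Regions of 1 library numbered 6, or 30.0%, against 23.5% of all regions. The median HOX region was called in 3.5 libraries and the median of all regions in 4. These densities are descriptions of the members and were not tested.

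**Figure D1:**
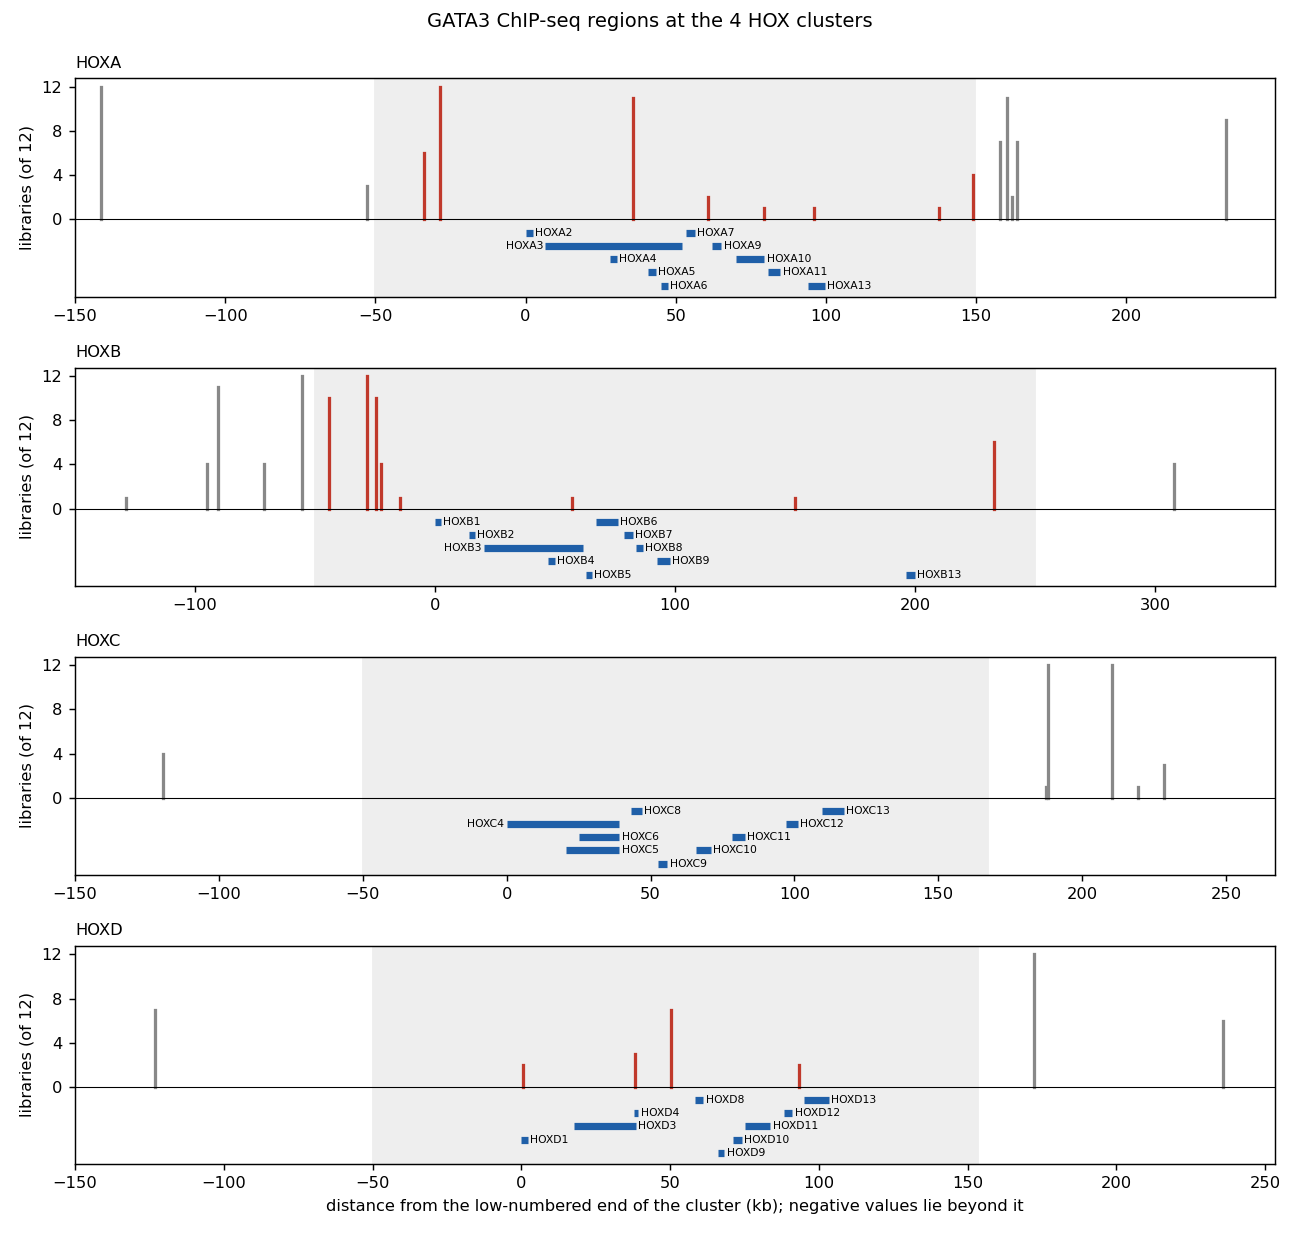
Merged GATA3 regions along the 4 HOX clusters; the x axis is the distance in kb from the low-numbered end of each cluster, bar height is the number of the 12 libraries that called the region, blue bars are the gene spans, red bars are regions inside the 50 kb window (grey shading) and grey bars lie outside it. The red bars called in 10 or more libraries lie beyond the low-numbered ends of HOXA and HOXB, apart from 1 in the span of HOXA3, and the HOXC window is empty.

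Sequences are shown for the single HOX promoter window that a region touched and for microRNAs coded inside the clusters, which serve as landmarks in 3 of them. Promoter windows run from 250 bases before to 50 after a gene start, from RefSeq (GRCh38.p14), and 20 of the 38 genes had at least 1. Of the HOXB genes only HOXB1 had any, and of the HOXC genes only HOXC4 and HOXC5. Those of HOXC4 and HOXC5 are the same window, counted for each, and HOXA3 had several. Of the 27 windows of these 20 genes 1 overlapped a region (3.70%), against 12.4% of 35116 windows of all genes. That window belongs to HOXA10, a gene of the uterus, limb and blood, at chr7:27179812-27180111 on the minus strand. Capitals mark the 170 bases that the region covers, from chromosome 7, 27179792 to 27179981, which was called in A442M-FLAG replicate 1 only, at percentile 43.5.
HOXA10 promoter: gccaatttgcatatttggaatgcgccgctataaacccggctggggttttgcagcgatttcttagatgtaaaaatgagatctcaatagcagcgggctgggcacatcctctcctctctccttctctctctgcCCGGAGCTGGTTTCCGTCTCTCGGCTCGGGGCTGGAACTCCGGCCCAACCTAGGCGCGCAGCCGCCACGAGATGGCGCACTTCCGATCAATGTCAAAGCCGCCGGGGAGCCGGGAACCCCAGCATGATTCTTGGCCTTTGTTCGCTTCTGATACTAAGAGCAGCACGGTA
The GATA motifs searched, on both strands, were AGATAA, then AGATAG, then TGATAA and lastly TGATAG. This window held none of them. They were found in 7 of the 27 HOX windows (25.9%), among them those of HOXD3, HOXD4 and HOXD12, and in 25.0% of all windows.

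The microRNA genes of the miR-196 family lie in HOXA, HOXB and HOXC, and their 5p products share the seed AGGUAGU. Capitals mark the seed, bases 2 to 8, and the sequences are from RefSeq.
hsa-miR-196b-5p: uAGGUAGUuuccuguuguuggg
hsa-miR-196a-5p: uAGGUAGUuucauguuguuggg
hsa-miR-10a-5p: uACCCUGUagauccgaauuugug
The gene of miR-196b, between HOXA9 and HOXA10, had its nearest region 8.32 kb away, called in 2 libraries. MIR196A1, beyond HOXB9, had its nearest region 46.0 kb away, called in 1 library. MIR196A2, in HOXC, makes the same 5p product and had its nearest region 123 kb away. MIR10A, next to HOXB4, had its nearest region 5.44 kb away, called in 1 library. No microRNA gene of the clusters thus had a region of more than 6 libraries as its nearest one.

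Within the 50 kb windows, 4 of the 5 regions called in 10 or more libraries lay beyond the low-numbered ends. Of the 20 regions, 7 lay beyond the low-numbered end of a cluster, 10 within a cluster's span from its first to its last listed gene, and 3 beyond the high-numbered end. The low-numbered flanks of the 4 clusters make up 200 kb and held these 4. The spans make up 520.6 kb and held the other one, or 1.92 such regions per Mb. The median number of libraries was 10 beyond the low-numbered ends, 2 within the spans and 4 beyond the high-numbered ends. The low-numbered flanks at HOXC and HOXD held no region. This layout depends on the window, since regions of 11 or 12 libraries lay just past the high-numbered windows, at 160 kb from the low-numbered end of HOXA and at 172 kb from that of HOXD.

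By gene, 29 of the 38 HOX genes (76.3%) had a region within 50 kb, against 88.4% of all protein-coding genes, and the 9 without were the HOXC genes. Neighbouring genes share regions, so genes are not separate observations. The median was 3 regions per HOX gene and 4 per protein-coding gene. A region called in all 12 libraries lay within 50 kb of 5 HOX genes, HOXA2, HOXA3, HOXB1, HOXB2 and HOXB3, or 13.2%, against 40.6% of all genes. All 5 belong to the anterior group (numbers 1 to 3), which has 7 genes, and 0 of 15 central (4 to 8) and 0 of 16 posterior (9 to 13) genes had one. Gene spans held a region in 7 of 38 HOX genes (18.4%) and in 51.9% of all genes. HOX genes are short, with a median span of 3785.5 bp against 24130 bp over all genes, and the part of length in this difference was not tested.

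**Figure D2:**
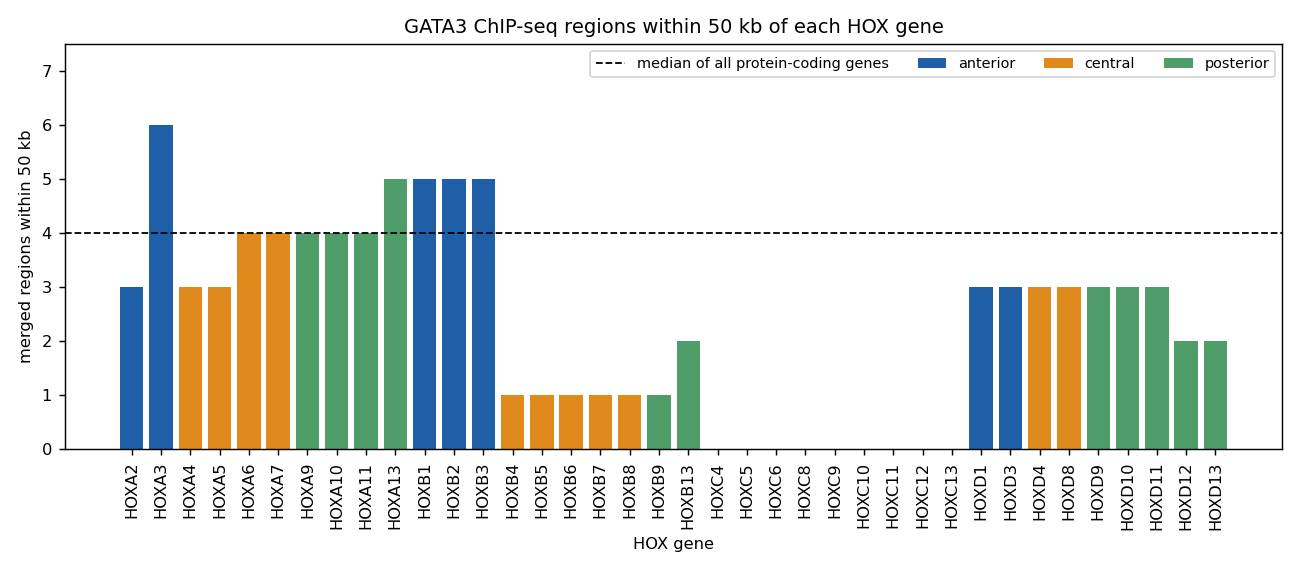
Number of merged regions within 50 kb of each of the 38 HOX genes (y axis), in order of gene number by cluster (x axis), coloured by anterior, central and posterior group; the dashed line is the median of 4 over all protein-coding genes. The 9 HOXC genes are at 0, HOXB4 to HOXB9 are at 1, and HOXA3 has the most, 6.

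In HOXA, 3 regions carried most of the calls. The region at chromosome 7, 27071630 to 27072036, lies 28.3 kb beyond HOXA2, a gene of hindbrain and pharyngeal arch patterning, and overlaps no annotated gene. It was called in all 12 libraries. Its percentiles were 72.5 and 65.0 in A442M-FLAG, 32.6 and 27.6 in G444E-FLAG, 74.5 and 21.5 in WT-FLAG, 53.5 and 54.0 in A442M, 63.0 and 48.4 in G444E, and 43.6 and 26.6 in WT. The WT-FLAG replicates were the highest and the lowest library, so every other library lay between them.

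The region at 27135866 to 27136703 lies in the span of HOXA3, which is needed for organs of the pharyngeal pouches, and between the spans of HOXA4 and HOXA5. It was called in 11 libraries, all but G444E-FLAG replicate 2. Its percentiles were 57.9 and 52.4 in A442M-FLAG, 36.7 in the calling G444E-FLAG library, 54.2 and 49.8 in WT-FLAG, 73.1 and 51.4 in A442M, 18.9 and 26.1 in G444E, and 13.4 to 14.2 in WT. Among the libraries that called it, the 4 untagged G444E and WT libraries ranked it lowest, and ranks from lists of different lengths show no change.

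The third HOXA region, at 27066267 to 27066684 and 33.7 kb beyond HOXA2, had a high score where it was called and was missing from 6 of the libraries. It was called in G444E-FLAG replicate 1 (percentile 89.7), in both A442M libraries (92.2 and 82.0), in G444E replicate 1 (92.1) and in both WT libraries (96.5 and 92.0). Neither A442M-FLAG nor WT-FLAG library called it. The authors' score was 74.5 in G444E-FLAG replicate 1, 97.4 and 55.5 in A442M, 90.8 in G444E replicate 1, and 166 and 104 in WT, each on its own list's scale. FLAG libraries called it in 1 of 6 and untagged libraries in 5 of 6 (Fisher's exact test, p = 0.0801, adjusted p = 0.365 over 11777 regions).
All 4 libraries of untagged WT and A442M called it, and these are the libraries with the most contig peaks. For WT and A442M the tag and that difference cannot be told apart. G444E-FLAG and G444E, which do not cross that divide, each had it in replicate 1 and not in replicate 2. Over all regions, 967 (1.22%) were called in these 4 libraries and in no library of WT-FLAG or A442M-FLAG.

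The remaining 5 HOXA regions were called in 4 libraries or fewer. A region 1.28 kb from HOXA9, a gene of blood stem cells and leukaemia, was called in G444E-FLAG and WT-FLAG replicate 1 at percentiles 17.4 and 23.1. A region in HOXA13, which patterns the hand, foot and genital tract, was called in A442M-FLAG replicate 2 alone at percentile 19.4. Towards EVX1, the homeobox gene next to HOXA13, the regions 37.8 kb and 48.8 kb beyond HOXA13 were called in 1 and 4 libraries, and the one of 4 libraries had percentiles of 0.159 to 52.3, with the highest in A442M replicate 1.

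In HOXB the calls lay mostly outside the genes. Beyond HOXB1, which specifies part of the hindbrain, 5 regions lay within 30.6 kb, and 3 of them were called in 10 or more libraries. From there to the region beyond HOXB13, a stretch of 247.5 kb with all 10 HOXB genes, 2 regions were found, each in 1 library. The first lay in HOXB3 (WT-FLAG replicate 1, percentile 26.5) and the second in the long non-coding RNA gene LINC02086, 45.9 kb from HOXB13 (G444E replicate 1, percentile 3.13). HOXB4, a regulator of blood stem cells, and HOXB5, HOXB6, HOXB7, HOXB8 and HOXB9 had no region in their spans and 1 within 50 kb.

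The region at chromosome 17, 48499380 to 48500796, 27.7 kb beyond HOXB1, was called in all 12 libraries. Its percentiles were 76.7 and 88.6 in A442M-FLAG, 75.0 and 73.8 in G444E-FLAG, 75.9 and 84.7 in WT-FLAG, 68.2 and 84.1 in A442M, 63.6 and 67.7 in G444E, and 49.8 and 63.8 in WT. The WT libraries were among the 3 lowest, with G444E replicate 1. The G444E-FLAG libraries ranked below those of both other FLAG groups, though narrowly, at 75.0 in replicate 1 against 75.9 in WT-FLAG replicate 1. The share of all regions with such an order was not counted, and ranks from lists of different lengths show no change. The median of its percentiles, 74.4, and that of the shared HOXA region, 51.0, are both below 79.2, the median over all regions called in 12 libraries.

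The neighbouring region, 48503676 to 48504478 and 24.0 kb beyond HOXB1, was called in the 10 libraries of the other groups and in neither untagged WT library. Its percentiles were 94.9 and 95.2 in A442M-FLAG, 90 and 85.8 in G444E-FLAG, 94.7 and 92.5 in WT-FLAG, 53.3 and 59.9 in A442M, and 76.8 and 84.2 in G444E. The FLAG libraries were the 6 highest, the lowest of them at 85.8 and the highest untagged library at 84.2. How many of all regions show this order was not counted, and ranks from lists of different lengths show no change. For A442M the tag and the difference in contig peaks cannot be told apart. The authors' score was 114 to 115 in A442M-FLAG, 60.4 to 76.0 in G444E-FLAG, 92.4 to 116 in WT-FLAG, 21.6 to 26.8 in A442M and 43.4 to 58.7 in G444E. The number of its calls leaves it untestable by Fisher's exact test in each of the 5 contrasts given further on. Calls in all 10 libraries of the other groups and in neither untagged WT library were found at 2061 regions, 2.61% of all.

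Of the other regions beyond HOXB1, the 1 at 43.4 kb (48483426 to 48485088, the widest HOX region with 1663 bp) was called in 10 libraries, all but G444E replicate 2 and WT replicate 2, at percentiles of 2.29 to 45.7. The region at 22.4 kb was called in A442M-FLAG replicate 1, G444E-FLAG replicate 1 and both WT-FLAG libraries, at percentiles of 2.83 to 39.6, and in no untagged library. The number of its calls left it untestable for FLAG against untagged, and the share of all regions with this pattern was not counted. The region at 14.5 kb was called in A442M-FLAG replicate 1 alone at percentile 0.342, among the weakest peaks of its list.

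Beyond HOXB13, a prostate homeobox gene, the region at 48761497 to 48761781 lies 32.7 kb from it and 453 bp from TTLL6, a tubulin-modifying enzyme gene. It was called in all A442M-FLAG and A442M libraries, in both G444E-FLAG libraries, and in no G444E, WT-FLAG or WT library. Its percentiles were 34.8 and 8.11 in A442M-FLAG, 38.8 and 8.30 in G444E-FLAG, and 28.1 and 38.1 in A442M, so it ranked in the lower part of each list. A442M libraries with and without the tag thus called it in 4 of 4 and WT libraries in 0 of 4 (Fisher's exact test, unadjusted p = 0.0286, the smallest that 4 against 4 allows; adjusted p = 1.0 over 7363 regions). Of those regions 176 (2.39%) leaned to A442M at an unadjusted p of at most 0.05, and 3 (0.0407%) to WT. The authors' score was 7.03 in A442M-FLAG replicate 2 and 6.91 in G444E-FLAG replicate 2. With only peaks scoring at least 10, the region was no longer one-sided for A442M-FLAG or G444E-FLAG over WT-FLAG. With equal lists of 25248 peaks it was one-sided neither for these pairs nor for A442M over G444E. The 4 of 4 calls in A442M libraries were thus not kept under either setting.

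HOXD regions lay within the cluster and were weak. The region at chromosome 2, 176140560 to 176140953, lies 7.87 kb from HOXD8 and was called in 7 libraries. These were A442M-FLAG replicate 2 (percentile 38.8), both G444E-FLAG libraries (8.53 and 34.4), WT-FLAG replicate 2 (36.7), A442M replicate 2 (39.6), G444E replicate 2 (43.4) and WT replicate 2 (12.2). Every replicate 2 library called it, and of the replicate 1 libraries only that of G444E-FLAG. Over all regions 181 (0.229%) were called in all 6 libraries of replicate 2 and in at most 1 of replicate 1, and 799 (1.01%) the other way round.

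A region at 176152520 to 176152909 overlaps the spans of both HOXD3 and HOXD4, which act in the hindbrain and neck vertebrae. It was called in G444E-FLAG, WT-FLAG and WT replicate 1, at percentiles of 13.1, 15.8 and 5.63. The region in HOXD1 (176190238 to 176190480) was called in A442M-FLAG and WT-FLAG replicate 1 at percentiles 34.0 and 13.2. The region 1.63 kb from HOXD13, a gene of digit formation, was called in A442M-FLAG and G444E-FLAG replicate 1 at 15.1 and 19.7. None of these 3 regions was called in a replicate 2 library.

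**Figure D3:**
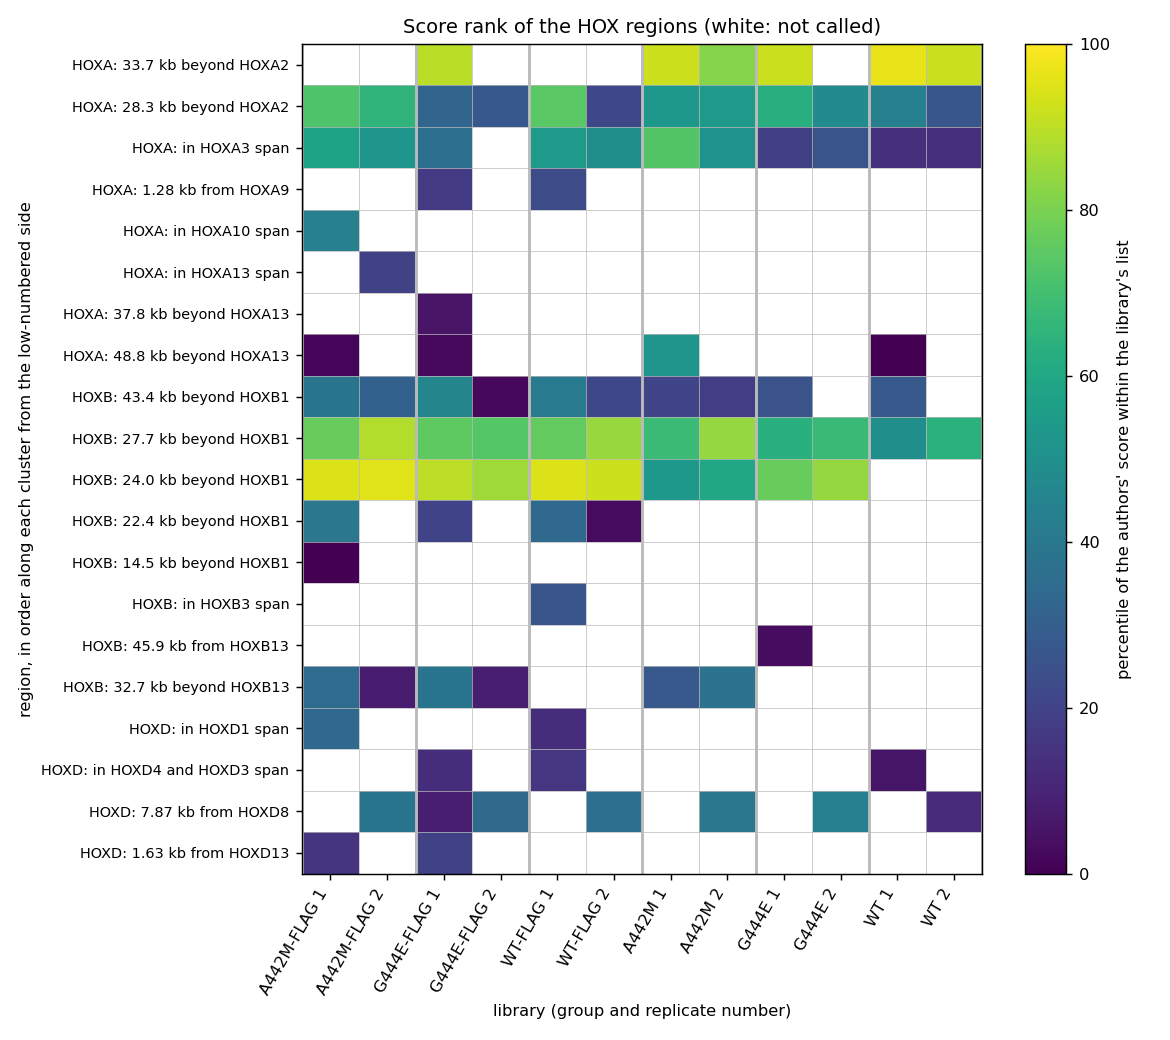
Percentile of the authors' score within each library's list (colour) for the 20 HOX regions (rows, ordered along each cluster from the low-numbered side) in the 12 libraries (columns); white cells were not called. The region 24.0 kb beyond HOXB1 is brightest in the FLAG columns and white in WT, and the region 33.7 kb beyond HOXA2 is bright or white.

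HOXC contains HOXC8, which patterns the trunk skeleton, HOXC13, a hair and nail gene, and the long non-coding RNA HOTAIR. The regions nearest to it lay 70.0 kb beyond HOXC13 (chromosome 12, 53868585 to 53868790, called in 1 library) and 119 kb beyond HOXC4, in the DNA repair gene SMUG1 (54175376 to 54175643, called in 4 libraries). The gap between them is 307 kb, and 98.4% of the 78814 gaps between neighbouring regions were shorter, while 1236 were at least as long. A region called in all 12 libraries lay 188 kb from the low-numbered end of HOXC, about as far as the 1-library region at 187 kb, and another one lay at 210 kb. Peak names are numbered along each chromosome, and gaps in the numbers show peaks that were numbered but are not in the lists. Between the listed peaks on either side of the HOXC window, no number was missing in 10 libraries and 1 was missing in 2 libraries. The same count over the 12 libraries was 4 around HOXA, 8 around HOXB and 16 around HOXD. These stretches run beyond the windows, at HOXD by 72.9 to 158 kb on 1 side, so the missing peaks need not lie in them. An empty window says that no listed peak reached it, with the reads behind it unknown.

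The number of HOX regions per library ran from 5 to 14. It was 12 and 8 in A442M-FLAG, 14 and 6 in G444E-FLAG, 10 and 7 in WT-FLAG, 8 and 8 in A442M, 7 and 5 in G444E, and 7 and 5 in WT. Replicate 1 had more than replicate 2 in 5 of 6 groups, and replicate 1 lists were also longer. Groups averaged 10 ± 2.83 in A442M-FLAG, 10 ± 5.66 in G444E-FLAG, 8.5 ± 2.12 in WT-FLAG, 8 ± 0 in A442M, 6.0 ± 1.41 in G444E and 6.0 ± 1.41 in WT (SD, n = 2 each). The ranges of A442M-FLAG and A442M lay above those of G444E and WT, and all other pairs of groups overlapped or touched. The A442M-FLAG and A442M lists were also the longer ones, with 36078 to 51694 peaks against 25248 to 31200 in G444E and WT, and the part of list length was not tested. As a share of a library's regions, HOX regions made up 0.0189% to 0.0250% in 11 libraries and 0.0359% in G444E-FLAG replicate 1. In each of the 12 libraries the HOX windows had fewer regions per Mb than the windows of all protein-coding genes, 5.43 to 15.2 against 9.60 to 21.5.

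**Figure D4:**
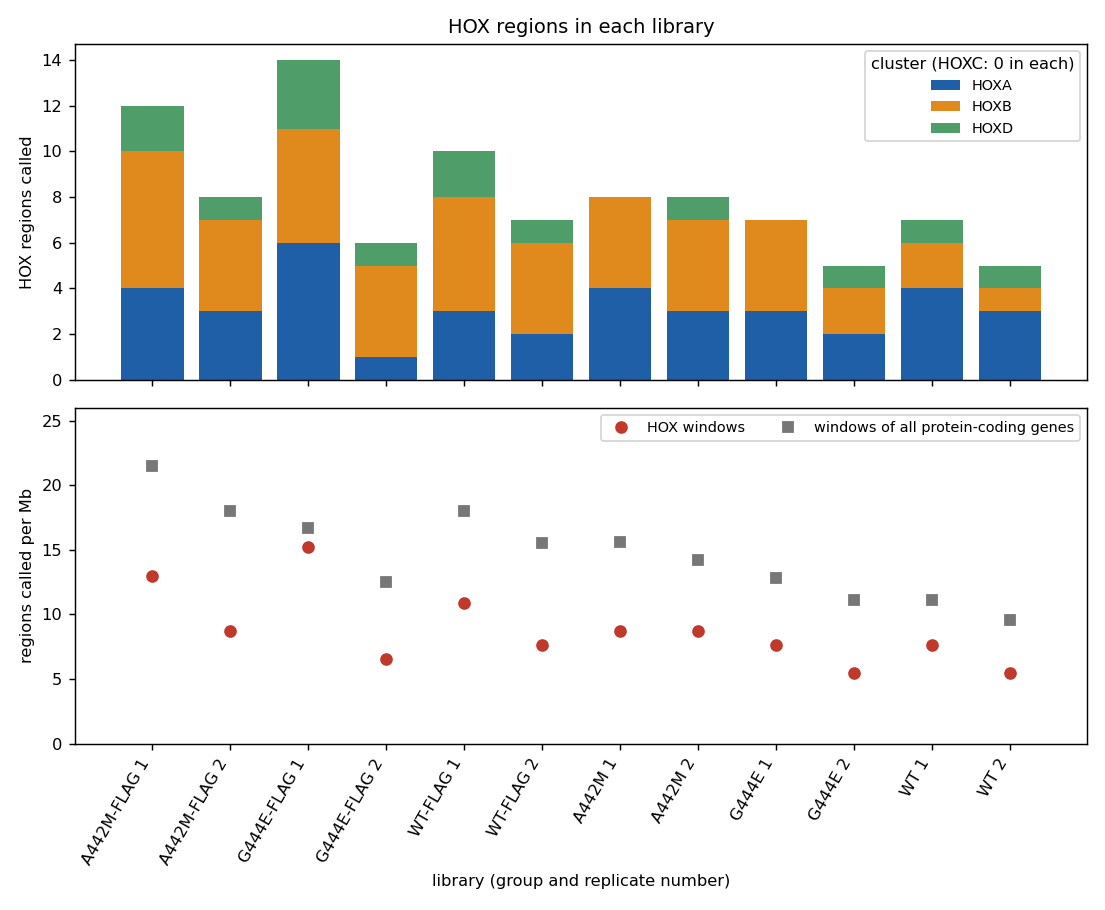
HOX regions called in each library, stacked by cluster (upper panel), and regions called per Mb in the HOX windows (red circles) and in the windows of all protein-coding genes (grey squares; lower panel), with libraries on the x axis. G444E-FLAG replicate 1 has the most HOX regions, 14, and red circles lie below the grey squares in each library.

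Whether mutation changes where untagged GATA3 sits at the HOX clusters was read from regions that both libraries of 1 group called and neither of the other. A pair of groups with 2 libraries each was not tested alone, since an exact test cannot pass 0.05 there. Of the 10 HOX regions that A442M or WT called, 2 were found in A442M and not in WT, those 24.0 kb beyond HOXB1 and 32.7 kb beyond HOXB13, where the share of all regions was 11.0%. None was found in WT and not in A442M (1.08% of all regions). For G444E the count was 1 of 10, the region 24.0 kb beyond HOXB1 (8.72%), and 0 on the WT side (6.27%). Between the mutants, A442M had 1 of 10 that G444E lacked, the region beyond HOXB13 (8.28%), and G444E had 0 (1.38%).

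With the tag the counts were again small. A442M-FLAG and G444E-FLAG each had 1 region that WT-FLAG lacked, in both cases that beyond HOXB13 (1 of 17, against 7.15% of all regions, and 1 of 16, against 0.659%). WT-FLAG had 0 that A442M-FLAG lacked (1.89%) and 0 that G444E-FLAG lacked (3.11%). A442M-FLAG and G444E-FLAG had none against each other (11.0% and 1.38% of all regions). Comparisons with the same WT-FLAG libraries share those samples.

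Tagged against untagged GATA3 differed at 1 to 3 HOX regions per genotype. WT-FLAG had 2 of 13 that WT lacked, the regions 24.0 kb and 22.4 kb beyond HOXB1 (16.8% of all regions), and WT had 1 that WT-FLAG lacked, the region 33.7 kb beyond HOXA2 (4.34%). A442M-FLAG had 0 that A442M lacked (12.5%), and A442M had 1, again the region 33.7 kb beyond HOXA2 (4.71%). G444E-FLAG had 1 of 15 that G444E lacked, beyond HOXB13 (3.57%), and G444E had 0 (0.700%). With counts of 0 to 2 out of 10 to 18 regions, no HOX share was read as different from that over all regions.

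No HOX region passed Fisher's exact test on calls after Benjamini-Hochberg adjustment in any of 5 contrasts: FLAG against untagged, both mutants against WT, A442M against WT, G444E against WT, and A442M against G444E. In these contrasts the number of calls left 3, 4, 3, 1 and 1 of the 20 regions testable. Over all regions the adjusted test called 0.00% in each, and the smallest adjusted p was 0.104, for FLAG against untagged. At an unadjusted p of at most 0.05, the count was 1 HOX region, for A442M against WT as given above, while all regions gave 1521, 83, 179, 74 and 490. As shares of the regions tested, these were 11.3% more often in FLAG and 1.63% more often in untagged libraries. They were 0.206% more often in both mutants and 0.105% in WT, 0.265% more often in G444E and 1.14% in WT, and 8.09% more often in A442M and 0.344% in G444E. The tests thus had little room to call single regions, and a p that misses the threshold does not show equal binding.

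Genes that act with HOX proteins or on the clusters were counted in the same way, and are to be read against the 88.4% of all protein-coding genes that had a region and their median of 4. Among genes of HOX partners, homeodomain proteins that bind DNA together with HOX proteins, PBX3 had 14 regions within 50 kb, MEIS2 12, PKNOX1 9, PBX4 7, PBX2 4, and PKNOX2 and MEIS3 3 each. MEIS1 had 0, with its nearest region 616 kb away. Of 16 chromatin regulators of the clusters, all had 1 or more (median 4), such as KMT2A, a histone H3K4 methyltransferase gene, with 12, and EZH2, the Polycomb methyltransferase gene, with 7. Of 8 related or upstream homeobox genes, 4 had a region, and GSX1, PDX1, CDX2 and CDX4 had 0. Gene length differs between these lists. Median spans were 32386 bp for the chromatin regulators, 6402.5 bp for the homeobox genes and 24130 bp over all protein-coding genes. Among the partner genes PBX3 spans 220005 bp and MEIS2 212108 bp. PKNOX2 spans 268639 bp, MEIS1, which had no region, 138745 bp, and PBX2 5470 bp. The part of length in the counts of all these lists was not tested.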

How the data were processed

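GATA3 ChIP-seq peak lists of 12 MDA-MB-231 libraries were used. The submitters' processing notes name MACS2 2.1.4, FastQC and build hg38. Aligner, control, filters and read depth: not given in the sources used here. Every deposited list holds 1 library's peaks with a score per peak, the authors' own value, which was at least 5.00 and served solely for ranks and thresholds inside 1 list. Coordinates are 1-based.

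Peaks overlapping by 1 bp or more were merged (Python 3.11.15, pandas 2.3.3). Gene spans came from RefSeq GRCh38.p14; all 38 genes matched. Calls were compared with Fisher's exact test, two-sided, adjusted (Benjamini-Hochberg) over all regions whose number of calls can reach p = 0.05. The members and lists were chosen with earlier results of these data known, and 1 gene of the partner list is not reported here. Regions with coordinates follow a rule (called in 12 libraries, the 3 with the highest median percentile per cluster, or one-sided for a pair of groups); for HOXD, where 3 regions tied at a median of 0, 2 of these were picked after their values were seen, and other regions are given for completeness.

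Replicate numbers 1 and 2 recur in every group. The replicate 1 minus replicate 2 differences in calls correlated at 0.113 to 0.29 for all 15 pairs of groups. Same-numbered libraries may therefore be paired, which rests on the calls, not on a label. The Fisher tests given above did not use this pairing. An alternative that did was run only for FLAG against untagged and for both mutants against WT.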

Additional observations from a re-analysis of the deposited data

Results flagged for a closer look

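G444E-FLAG replicate 1 stood apart among the 6 FLAG libraries in the share of its regions that lay at HOX clusters, 0.0359%, while the other FLAG libraries had 0.0189% to 0.0239%. It called 14 HOX regions, 6 of them at HOXA, and G444E-FLAG replicate 2 called 6. Of 20 such gaps examined over FLAG and untagged libraries 1 was wide enough, and chance alone flags about 1 in 20 groups.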

How the results depend on the processing

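The alternatives only remove peaks or libraries, narrow the window or tighten a call, so they could not have raised the HOXC count of 0. No HOX region passed Fisher's test under any of them. With a score of at least 10, HOXD had 2 regions, the one-sided count for A442M-FLAG over A442M was 1, and those for A442M-FLAG and G444E-FLAG over WT-FLAG and G444E-FLAG over G444E were 0. With equal lists of 25248 peaks, 9 regions were left (HOXA 4, HOXB 4, HOXD 1), 1 of them in all libraries; A442M over WT and WT-FLAG over WT had 1, A442M over G444E, A442M-FLAG over WT-FLAG, G444E-FLAG over WT-FLAG and G444E-FLAG over G444E had 0, and WT-FLAG over G444E-FLAG and A442M-FLAG over G444E-FLAG had 1. When a call required peaks over 50% of the region or more, 1 region was in all libraries, and A442M over WT had 1, WT-FLAG over WT 4 and A442M-FLAG over A442M 2. A window of 10 kb left 9 regions (HOXA 4, HOXB 1, 0 in all libraries), and the gene spans alone 6 (HOXA 3, HOXB 1, HOXD 2, 0 in all libraries). The cause of these shifts was not tested, beyond the shorter lists and windows themselves.

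Leaving out 1 library gave 18 to 21 regions in all and 2 to 3 called in every library. One-sided counts ran from 2 to 5 for WT-FLAG over WT, 1 to 2 for G444E over WT and WT over WT-FLAG, 0 to 2 for WT over G444E and WT-FLAG over G444E-FLAG, and 0 to 1 for WT over A442M, G444E over A442M and G444E over G444E-FLAG. They ran from 1 to 3 for A442M over G444E, 0 to 5 for A442M-FLAG over A442M, 1 to 7 for G444E-FLAG over G444E, 1 to 5 for A442M-FLAG and G444E-FLAG over WT-FLAG, 0 to 3 for WT-FLAG over A442M-FLAG and A442M-FLAG over G444E-FLAG, and 0 to 4 for G444E-FLAG over A442M-FLAG, since a lone library then stands for its group. Every count of 4 or more came without replicate 2 of the group named first, a FLAG library each time. With labels exchanged only within replicate number (replicate block), 0 HOX regions passed for FLAG against untagged and for both mutants against WT, as without it; the 3 contrasts of 4 against 4 libraries are too small for the exact test to pass its threshold under this pairing. Read depth is unknown, and so is the depth behind every empty window.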
